A study of Mus musculus with 8 samples.

Results

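Metallothioneins Mt1 and Mt2, the zinc-sensing transcription factor gene Mtf1, the zinc importer gene Slc39a14 and the zinc exporter gene Slc30a1 were examined for binding of the glucocorticoid receptor (GR) and of FOXO1 in mouse liver. They are 5 of the 21938 protein-coding genes considered, and were chosen by name. GR peaks of 6 libraries were merged into 51431 sites, of which 61 had their centre within 50 kb of the start of one of the genes. The labelled tissue was liver of C57BL/6J mice, taken at ZT12, the start of the dark and active phase. The 3 groups were mice fed only at night (ctrl.), mice under caloric restriction (cal. res.), and mice fed only at night that received corticosterone by intraperitoneal injection (CORT), all on regular chow. The study describes male mice. By its account, ctrl. mice had free access to food until the final week, when feeding was limited to the night. Restriction was increased stepwise over weeks, and CORT mice were injected daily while fed at night. The labels of the ctrl. libraries name no vehicle injection. Each group had 2 GR libraries, which the study calls biological replicates, and FOXO1 had been profiled in cal. res. livers alone with a mixture of antibodies, from 2 libraries merged before peak calling, so that no replicate spread exists for FOXO1.

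Metallothioneins are small cysteine-rich proteins that bind zinc and copper and detoxify cadmium, and they are abundant in hepatocytes. MTF1, the product of Mtf1, binds metal response elements in their promoters when cytosolic zinc is high. Glucocorticoids are long known to induce metallothioneins in liver. ZIP14, encoded by Slc39a14, brings zinc, manganese and non-transferrin-bound iron into hepatocytes, and ZnT1, encoded by Slc30a1, carries zinc out across the plasma membrane and is itself a target of MTF1. GR is a ligand-activated nuclear receptor that binds, as a dimer, inverted repeats of a short core sequence, and FOXO1 is a forkhead factor that is nuclear when insulin signalling is low.

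The measurements were peak lists, not gene expression. A group held a site if a peak was listed in replicate 1 as well as in replicate 2. The strength of a peak was its fold enrichment over background as the peak caller gave it, and, since the lists differed in length, it was set on a common footing as the percentile among the regions of its own list or as the rank from the top of that list. The ctrl. lists held 36234 and 12458 regions, the cal. res. lists 22707 and 18747, the CORT lists 29473 and 39136, and the FOXO1 list 8068, and the sequencing depth behind them is unknown from the lists. The file labels had 2 styles of name: ctrl. 2 and both cal. res. libraries began with letters, and ctrl. 1 and both CORT libraries with digits. The labels do not say that the styles mark a batch, and cal. res. and CORT cannot be told apart from the style, so differences are also given within a style. As a check of the tissue, GR sites centred within 1 kb of the start were sought at marker genes. They were found for 3 of 8 hepatocyte genes (Ttr in all 6 lists, Hnf4a in 3 and Tat in 1) and for 0 of 8 genes of other liver cells. Alb, Apoa1, Serpina1a, Cps1 and Cyp2e1 had no such site in any list. Of the 21938 protein-coding genes, 10015 besides Mt1 had a GR site within 1 kb of the start. Because sites near a start were this common, the marker genes could not by themselves identify the tissue. In whole liver, fewer binding cells and less binding per cell cannot be told apart.

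Some of the strongest GR binding near these genes lay over short DNA elements that can be read directly. Printed first are the genomic stretches (build mm10, plus strand, 5′ to 3′) under the main summits, with matches of the GR full element in capitals, which is GNACA and TGTNC spaced by 3 bases, and for the promoters also matches of the metal response element (TGCACNC or TGCGCNC), both strands being searched.
Element upstream of Mt2, chr8:94171369-94171668: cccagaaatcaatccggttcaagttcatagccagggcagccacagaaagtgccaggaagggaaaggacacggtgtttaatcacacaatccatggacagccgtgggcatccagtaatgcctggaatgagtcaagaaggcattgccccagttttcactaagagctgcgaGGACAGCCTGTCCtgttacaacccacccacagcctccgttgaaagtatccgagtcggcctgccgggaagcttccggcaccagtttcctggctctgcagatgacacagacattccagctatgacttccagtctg
Mt2, the 250 bases before the gene start, chr8:94172414-94172663: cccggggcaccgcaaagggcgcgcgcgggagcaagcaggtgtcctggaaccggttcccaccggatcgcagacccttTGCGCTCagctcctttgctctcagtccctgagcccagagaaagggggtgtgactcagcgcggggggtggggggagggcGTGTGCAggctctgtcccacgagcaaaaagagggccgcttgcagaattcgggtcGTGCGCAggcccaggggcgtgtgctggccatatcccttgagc
Mt1, the 250 bases before the gene start, chr8:94178832-94179081: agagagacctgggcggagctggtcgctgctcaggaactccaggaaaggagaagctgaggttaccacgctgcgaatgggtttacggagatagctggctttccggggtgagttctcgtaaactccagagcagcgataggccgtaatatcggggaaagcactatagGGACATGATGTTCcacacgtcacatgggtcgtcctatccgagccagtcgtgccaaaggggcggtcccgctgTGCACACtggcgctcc
Slc39a14, intron, chr14:70336514-70336713: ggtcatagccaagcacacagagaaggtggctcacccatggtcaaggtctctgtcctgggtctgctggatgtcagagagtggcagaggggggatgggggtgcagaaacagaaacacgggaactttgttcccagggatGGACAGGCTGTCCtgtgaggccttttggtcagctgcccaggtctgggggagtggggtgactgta
Slc39a14, distal upstream site, chr14:70393670-70393869: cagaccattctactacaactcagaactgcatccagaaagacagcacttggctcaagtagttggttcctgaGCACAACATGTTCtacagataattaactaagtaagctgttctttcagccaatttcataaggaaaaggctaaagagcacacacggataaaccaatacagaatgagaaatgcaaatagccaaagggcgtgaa

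The element upstream of Mt2 is shown as the main element of that gene, and the distal Slc39a14 site because it held a match of the GR full element, both chosen after their values were seen. The second strongest Slc39a14 site, 10.7 kb downstream of the start with a mean percentile of 92.5, held no such match in its window and is not shown. The matches of the GR full element were GGACAGCCTGTCC upstream of Mt2, GGACATGATGTTC in the Mt1 promoter, GGACAGGCTGTCC in the Slc39a14 intron and GCACAACATGTTC at the distal Slc39a14 site. The Mt2 promoter held 3 metal response elements and no GR full element. Within 200 bp around the top summit, 4 of the 9 sites at these genes with a peak in all 6 lists matched the GR full element, whereas 4.52% of the 8095 such sites genome-wide that could be searched did, and 1.89% of the 51428 searched sites of any kind. In the RefSeq promoter table, which covers 300 bases per gene on mm10 and matched 4 of the 5 genes, the GR full element was found in 0.475% of promoters and in that of Mt1. At least 3 metal response elements were found in 1.97% of those promoters, with 3 in that of Mt1, 4 in that of Mt2, 2 in that of Slc30a1 and 0 in that of Mtf1. Over all 61 sites, the GR full element matched at 4, the GR core AGAACA, which can overlap it, at 17 (18.4% of all searched sites), and the metal response element at 10 (14.7%). The forkhead motif (TGTTTAC or TATTTAC) matched at 3 (8.72%), the C/EBP motif TTGCNNAA at 12 (15.1%), the STAT motif TTCNNNGAA at 2 (8.16%), the HNF4 motif CAAAGTCCA at 3 (1.47%) and the E-box CACGTG at 4 (4.72%). A match is a description of the letters and not evidence of binding.

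GR summits lay close to these matches in every library. The matches were sought in short stretches around the top summit or before the gene start, so a small distance was partly set by the search. In the Mt1 promoter the 6 summits lay 15 to 47 bp from the centre of the GR full element, all on the side of the gene, and the FOXO1 summit lay 35 bp from it on the same side. In the Slc39a14 intron the summits lay 28 to 57 bp from it, all on one side, with the FOXO1 summit 79 bp away on that side. Upstream of Mt2 they lay 16 to 97 bp away, with CORT 2 on the other side from the remaining 5, and the FOXO1 summit lay 113 bp away. At the distal Slc39a14 site they lay 15 to 62 bp away, with ctrl. 2 alone on the one side. Metal response elements lay as near or nearer at 2 of these places. In the Slc39a14 intron a match GGGTGCA, not in capitals above, lay 3 to 16 bp from the GR summits and 35 bp from the FOXO1 summit. In the Mt1 promoter the match TGCACAC lay 21 to 53 bp from the GR summits and 33 bp from the FOXO1 summit.

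**Figure D1:**
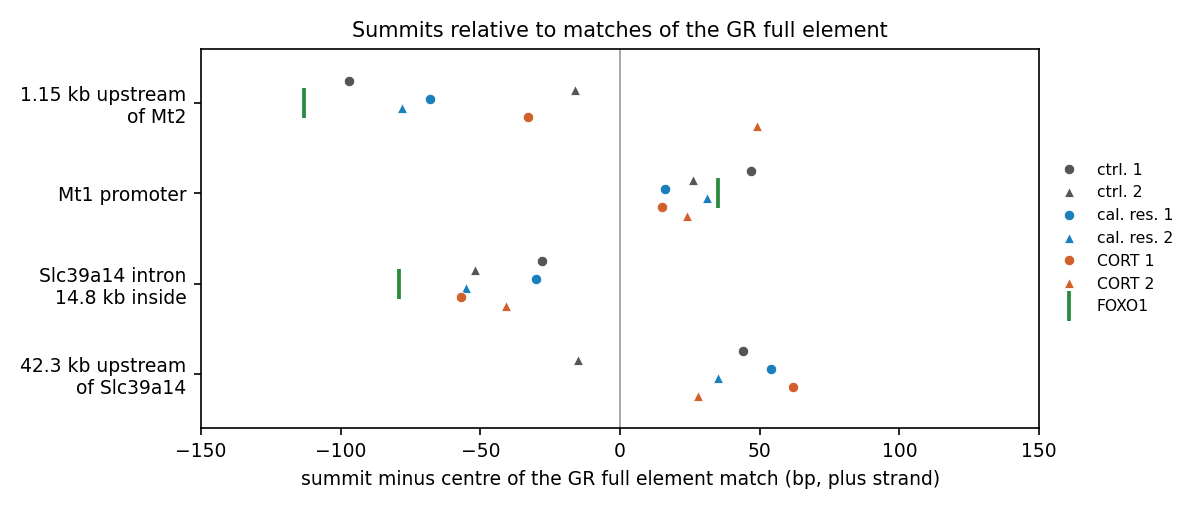
Position of the GR summit of each library (points, coloured by group, circles for replicate 1 and triangles for replicate 2) and of the FOXO1 summit (green bars) in bp from the centre of the GR full element match at 4 elements; each point is 1 library. The Mt1 promoter summits sit between 15 and 47 bp to the right of the match, and the distal Slc39a14 element has no FOXO1 summit in range.

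Mt1 (chr8:94179082-94180327, plus strand, ENSMUSG00000031765.8) had one of the strongest GR peaks of every list at its promoter, 0.05 kb upstream of its start. The fold enrichment there was 52.7 and 26.3 (ctrl.), 67.1 and 43.4 (cal. res.) and 130 and 214 (CORT). This put the peak at rank 94 and 62 in the ctrl. lists, 91 and 132 in the cal. res. lists, and 4 and 4 in the CORT lists. Both CORT libraries thus ranked above the other 4, while the ctrl. and cal. res. ranks overlapped. The FOXO1 list had a summit at the same place, with a fold enrichment of 8.27 and a percentile of 78.4 among the 8068 FOXO1 regions. A second summit 4.12 kb downstream of the Mt1 start was of middle strength in ctrl. and cal. res., with a fold enrichment of 11.3 and 4.49 in ctrl., and 8.97 and 5.71 in cal. res. In CORT it was 25.2 and 34.8, and the FOXO1 list had a summit 82 bp from the nearest GR summit, that of cal. res. 1. The CORT lists gave the promoter and this second element as 1 wide region of 5727 and 5735 bp, whereas in the other lists the region at the promoter was 507 to 1575 bp long.

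Mt2 (chr8:94172664-94173568, plus strand, ENSMUSG00000031762.7), the neighbour of Mt1, had its main GR element not at the promoter but 1.15 kb upstream, inside an exon of the transcript Gm45774. The fold enrichment of that element was 41.5 and 6.68 (ctrl.), 41.5 and 32.0 (cal. res.) and 110 and 202 (CORT). It ranked 175 and 2125 in the ctrl. lists, 276 and 265 in the cal. res. lists, and 14 and 7 in the CORT lists. The ctrl. replicates lay far apart, with the cal. res. libraries between them, and both CORT libraries ranked above all of them. FOXO1 had a summit at this element with a percentile of 65.9. At the Mt2 promoter itself, 0.08 kb upstream of the start, ctrl. 2 had no summit, ctrl. 1 had a fold enrichment of 10.3, and the cal. res. libraries had 11.5 and 4.34. The CORT libraries had 52.0 and 93.2 there, ranks 145 and 64 of their lists, and the FOXO1 list had no summit within 1 kb of it. Further upstream, 7.32 kb before Mt2, GR was found in 5 lists, with a fold enrichment of 16.6 (ctrl. 1), 11.7 and 9.85 (cal. res.) and 18.7 and 38.1 (CORT), and it was missing from ctrl. 2. FOXO1 was also listed there, at a percentile of 18.0, the lowest of the FOXO1 peaks at these genes.

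The windows of Mt1 and Mt2 held the same 10 sites, of which 3 were held by ctrl., 3 by cal. res. and 6 by CORT. The metallothionein genes Mt3 and Mt4 and the start of Nup93, which encodes a nuclear pore protein, lie in the same window, so that no site could be assigned to 1 gene. A site 15.8 kb downstream of Mt1 was found in both CORT libraries, at percentiles 47.7 and 69.4, and in no other list. A site 35.5 kb downstream, named after its values were seen, was found in 5 lists, at percentiles 16.6 and 32.0 in ctrl., 65.1 in cal. res. 1, and 60.9 and 77.0 in CORT, and not in cal. res. 2. The remaining sites were found in CORT 1, CORT 2 or ctrl. 1 at percentiles of 67.2 or lower.

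**Figure D2:**
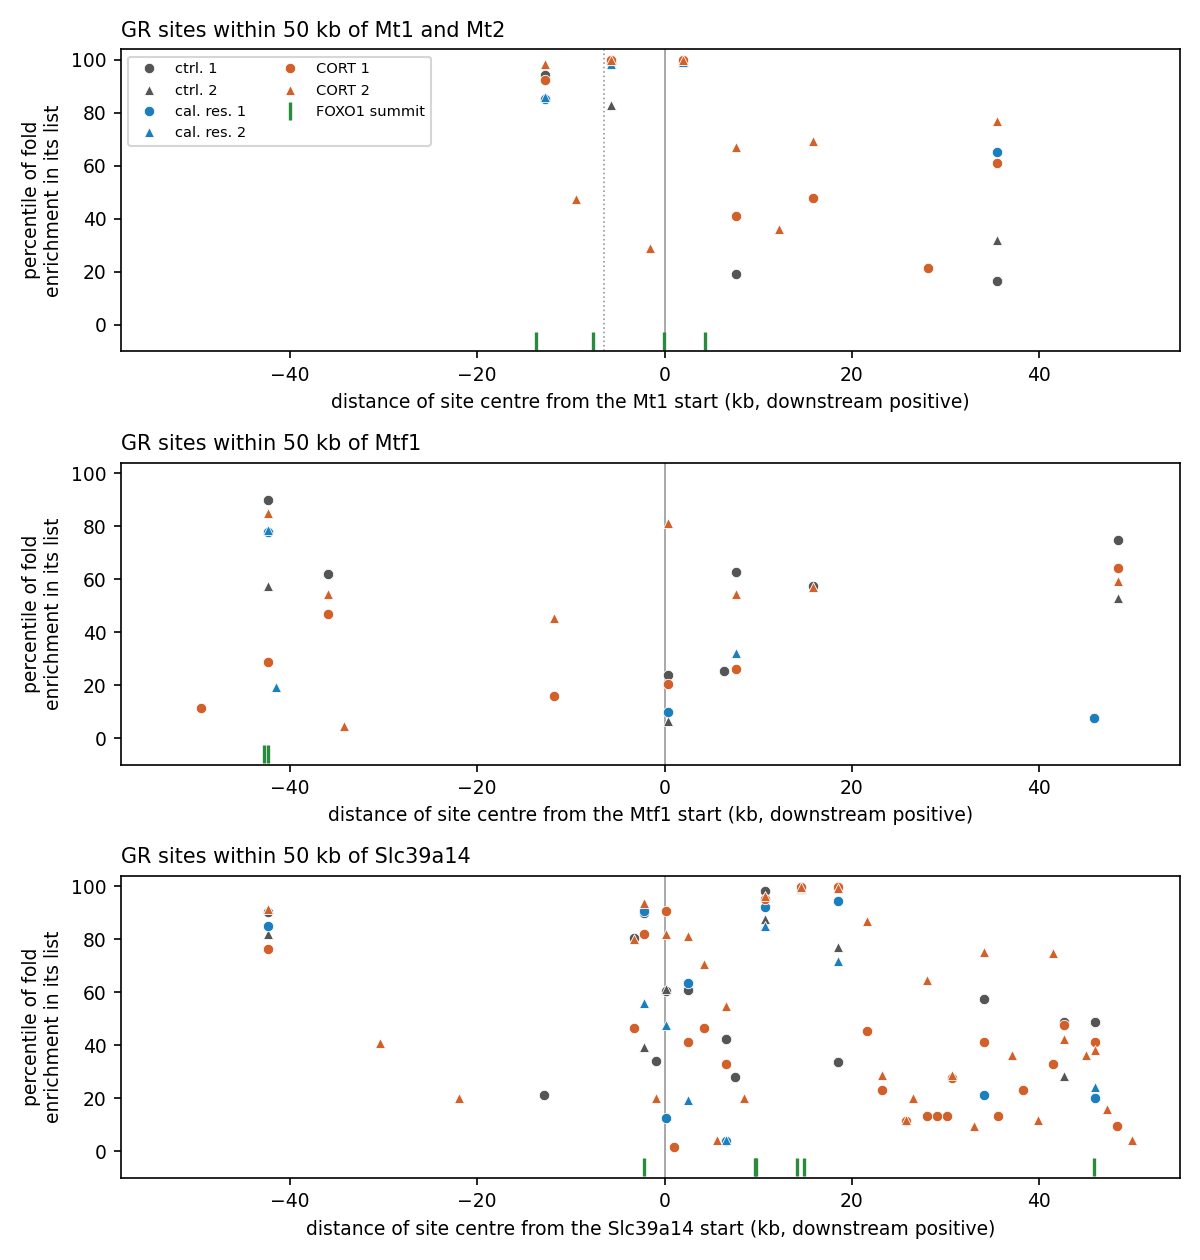
Within-list percentile of GR fold enrichment (vertical axis) of each site within 50 kb against the distance of its centre from the start of Mt1, Mtf1 or Slc39a14 in kb (horizontal axis, downstream positive; the dotted line is the start of Mt2). Points are libraries, coloured by group, with circles for replicate 1 and triangles for replicate 2, and green bars are FOXO1 summits; a library without a peak has no point.

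Slc39a14 (chr14:70303469-70351425, minus strand, ENSMUSG00000022094.15) had more GR sites around its start than nearly every other gene. Of its 39 sites, 30 were centred within the gene, which is 48.0 kb long. Only 2 of the 21938 protein-coding genes, Slc39a14 included, had 39 or more, against a median of 3. The libraries had peaks at 15 and 7 (ctrl.), 10 and 9 (cal. res.) and 25 and 31 (CORT) of these sites, and with the same number of regions taken from each list 13 sites were left in the window. The strongest element lay in an intron, 14.8 kb downstream of the start. Its fold enrichment was 53.9 and 21.0 (ctrl.), 67.6 and 51.2 (cal. res.) and 78.4 and 121 (CORT). It ranked 89 and 121 (ctrl.), 87 and 87 (cal. res.) and 35 and 31 (CORT), the ctrl. ranks spanning those of cal. res. when read as a share of the list, and both CORT ranks being higher. FOXO1 was strong here as well, with a fold enrichment of 12.9 at a percentile of 93.1, its highest at any of these genes. Together with the Mt1 promoter site, this was 1 of 2 sites at these genes in the top 1% of all 6 lists, a class that held 0.150% of all GR sites (77 of 51431).

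Other elements of Slc39a14 behaved differently from the leading one. An intronic element 19.8 kb downstream of the start, likewise named after its values were seen, had a fold enrichment of 4.63 and 6.08 (ctrl.), 19.2 and 6.89 (cal. res.) and 65.0 and 62.9 (CORT). It ranked 24005 and 2850 in the ctrl. lists, 1263 and 5254 in the cal. res. lists, and 68 and 188 in the CORT lists, and had no FOXO1 summit within 4 kb. At the site 10.7 kb downstream, with a FOXO1 summit, the percentiles were 98.1 and 87.8 (ctrl.), 92.3 and 85.2 (cal. res.) and 95.2 and 96.5 (CORT). Ctrl. overlapped both other groups there, while both CORT libraries ranked above both cal. res. libraries. The site at the start of the gene, over its UTR, had percentiles of 60.6 and 61.3 (ctrl.), 12.4 and 47.6 (cal. res.) and 90.7 and 82.1 (CORT), without overlap between the groups. It was the only 1 of the 9 sites with a peak in all 6 lists at which both ctrl. libraries ranked above both cal. res. libraries. It was flanked by 2 weak sites within 1 kb of the start, one 0.96 kb downstream with a peak in CORT 1 alone at percentile 1.62, and one 0.86 kb upstream with peaks in ctrl. 1 (34.2) and CORT 2 (20.2). Just upstream, 2.16 kb before the start, a site with a FOXO1 summit had percentiles of 90.0 and 39.4 (ctrl.), 90.8 and 56.1 (cal. res.) and 82.2 and 93.8 (CORT). The distal site 42.3 kb upstream, in an intron of the piRNA pathway gene Piwil2, had overlapping groups, with percentiles of 90.2 and 82.1 (ctrl.), 84.9 and 91.4 (cal. res.) and 76.2 and 91.3 (CORT).

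Many weaker Slc39a14 sites were listed for CORT alone. Of the 30 sites inside the gene, 20 had peaks only in CORT libraries, a class that made up 25.9% of all GR sites. In 7 of these 20 both CORT libraries had a peak, against 1563 of the 13311 GR sites with peaks in CORT libraries only. The strongest of the 7 lay 21.7 kb downstream of the start at percentiles 45.6 and 87.1. A site in the 3′ part of the gene, 45.9 kb downstream, carried FOXO1 and was held by cal. res. (percentiles 20.3 and 24.3) and CORT (41.2 and 38.3), with a peak in ctrl. 1 at 48.7 and none in ctrl. 2. A site over a coding exon, 42.7 kb downstream, was held by ctrl. (48.7 and 28.5) and CORT (47.7 and 42.3) and had no peak in either cal. res. library.

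Mtf1 (chr4:124802104-124849800, plus strand, ENSMUSG00000028890.13), whose product senses zinc, ranked lower in the GR lists than the metallothioneins and Slc39a14: its best site had a mean percentile of 69.6 over the 6 lists, against 99.7 for the Mt1 promoter site and 99.6 for the Slc39a14 intron. Its site at the gene start had a fold enrichment of 4.11 and 3.13 in ctrl., 3.52 in cal. res. 1, none in cal. res. 2, and 4.34 and 10.3 in CORT. Only CORT 2 placed it high, at percentile 81.0, and the other 4 lists with a peak placed it between 6.51 and 23.7. The strongest of its 12 sites lay 42.4 kb upstream in an intron of Inpp5b, which encodes an inositol polyphosphate phosphatase. Its percentiles were 90.0 and 57.5 (ctrl.), 77.6 and 78.4 (cal. res.) and 28.9 and 85.1 (CORT), with no order among the groups. This was the 1 site of Mtf1 with FOXO1, which had 2 summits there, the stronger at a fold enrichment of 8.72 and a percentile of 80.9. The genomic stretch is shown because a forkhead motif (TGTTTAC or TATTTAC, in capitals), which 8.72% of all searched sites hold within 200 bp, lay 20 bp from that FOXO1 summit.
Mtf1, distal upstream site, chr4:124759667-124759866: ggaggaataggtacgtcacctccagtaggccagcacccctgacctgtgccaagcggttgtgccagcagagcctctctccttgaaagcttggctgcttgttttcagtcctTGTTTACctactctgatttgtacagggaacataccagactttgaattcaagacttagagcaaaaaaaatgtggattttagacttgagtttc
No GR full element was found in it. A site 48.4 kb downstream, over a coding exon of 1110065P20Rik, was held by ctrl. (74.7 and 52.9) and CORT (64.3 and 59.1) and had no peak in cal. res. A site 11.8 kb upstream was found in both CORT libraries alone (15.8 and 45.5), and one 7.67 kb downstream in 4 lists, at percentiles from 26.1 to 62.7.

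Slc30a1 (chr1:191906767-191913247, plus strand, ENSMUSG00000037434.7), the exporter, had no GR site and no FOXO1 peak within 50 kb in any list. The nearest GR site lay 119.1 kb upstream and was listed in CORT 2 alone, and the nearest FOXO1 peak lay 265.2 kb upstream. Among all protein-coding genes, 73.2% had a GR site of some list within 50 kb. The absence is one of called peaks, since a list names only regions past its threshold.

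**Figure D3:**
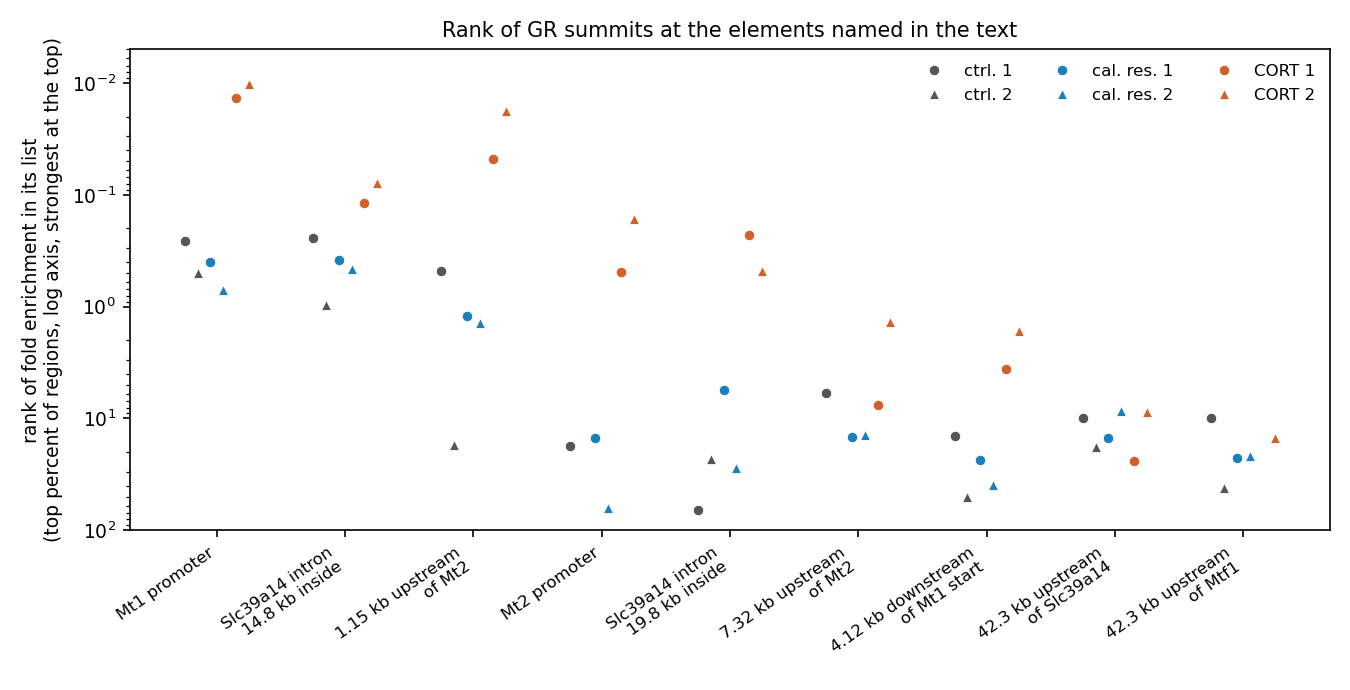
Rank of the GR summit in its own list, as the top percent of regions on a log axis with the strongest at the top, for 9 elements at these genes; points are libraries, coloured by group, with circles for replicate 1 and triangles for replicate 2, and a missing point is a library with no summit there. At the Mt1 promoter, the Mt2 promoter, the element 1.15 kb upstream of Mt2 and both Slc39a14 introns the CORT points sit above the rest, while the distal elements of Slc39a14 and Mtf1 show mixed groups.

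Across the 61 sites, CORT held the most. Ctrl. held 13 sites, cal. res. 13 and CORT 31, against 21.4%, 27.9% and 43.7% of all GR sites. All 3 groups together held 9, against 15.7% of all GR sites. Cal. res. held 4 sites that ctrl. did not hold, against 11.5% of all sites, and each of these 4 had a peak in ctrl. 1. CORT held 18 sites that ctrl. did not hold, against 24.3% of all sites. Of those 18, 9 had a peak in ctrl. 1 and 9 in neither ctrl. library, the latter class being 4.28% of all sites. No site was held by cal. res. without a ctrl. peak. The share of all GR sites was computed neither for this class nor for cal. res. gains with a ctrl. 1 peak. Neither count is therefore read as particular to these genes. Peaks in CORT libraries alone were found at 32 sites, against 25.9% of all sites (13311). Of the 32, 15 had a peak in CORT 2 alone, as had 8705 of those 13311.

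The number of sites with a peak was 27 and 13 (ctrl.), 17 and 15 (cal. res.) and 39 and 48 (CORT). Read against the length of each list, this was 0.0776% and 0.113% (ctrl.), 0.082% and 0.0865% (cal. res.) and 0.141% and 0.127% (CORT) of the sites that list had genome-wide. Both CORT libraries had more than any other, and the cal. res. numbers lay between those of the ctrl. libraries. The mean difference was 23.5 sites for CORT minus ctrl. (exact two-sided permutation p = 0.333), 27.5 for CORT minus cal. res. (exact p = 0.333) and -4.0 for cal. res. minus ctrl. (exact p = 1.0), where 0.333 is the smallest p that 2 against 2 libraries allow, and over the 3 groups together the exact p was 0.2, the smallest possible being 0.0667. Within a name style, CORT minus ctrl. 1 was 16.5 sites and cal. res. minus ctrl. 2 was 3.0 sites, the opposite sign to that of the pooled difference. List length moved with these numbers: with the 12458 regions of smallest p from each list, the numbers became 10 and 13 (ctrl.), 11 and 10 (cal. res.) and 11 and 18 (CORT). Ctrl. then held 8 of 20 sites, cal. res. 9 and CORT 10, against 36.0%, 42.6% and 42.2% of the sites so merged, and all 3 groups together held 6, against 22.6%.

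**Figure D4:**
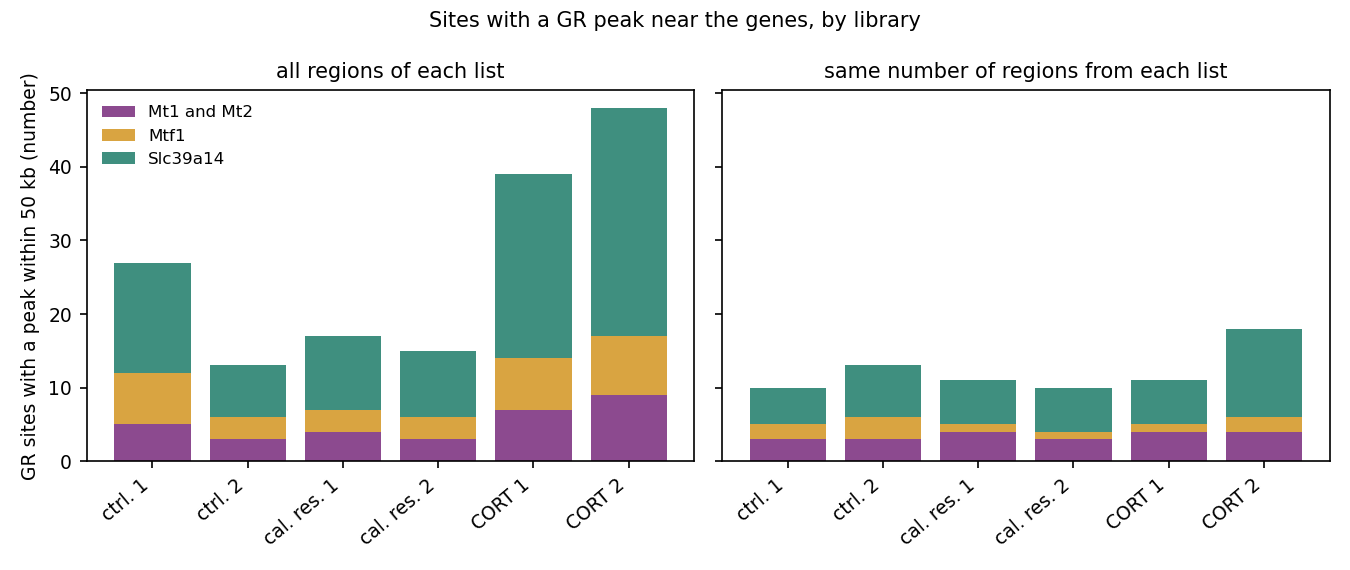
Number of GR sites with a peak within 50 kb of the genes in each library, stacked by gene window, from all regions of each list (left) and from the same number of regions per list (right). The CORT bars reach 39 and 48 on the left, and on the right all bars lie between 10 and 18.

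At the 9 sites with a peak in all 6 lists, the percentiles averaged 84.6 and 76.3 (ctrl.), 83.4 and 80.9 (cal. res.) and 85.9 and 94.3 (CORT). CORT lay 9.6 percentile points above ctrl. (exact two-sided permutation p = 0.333) and 7.92 above cal. res. (exact p = 0.333), and cal. res. 1.69 above ctrl. (exact p = 1.0), none of which the design could have called. Within a name style the differences from ctrl. were 5.43 for CORT and 5.86 for cal. res. With the same number of regions per list, 6 such sites were left, and CORT lay 0.576 points above ctrl. and -0.11 from cal. res. Site by site, both CORT libraries ranked above both ctrl. libraries at 5 of the 9 sites, against 26.6% of all 8097 such sites, and above both cal. res. libraries at 6, against 46.0%. Both cal. res. libraries ranked above both ctrl. libraries at 0 of 9, against 11.5%.

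FOXO1 summits numbered 12 at these genes: 4 in the window of Mt1 and Mt2, 2 in that of Mtf1 and 6 in that of Slc39a14. The 6 of Slc39a14 lay in 5 regions. Each of the 12 lay in a region that overlapped a GR site, as did 93.4% of all 8394 FOXO1 summits. The FOXO1 list holds these 8394 summits in 8068 regions. In reverse, 8 of the 61 GR sites overlapped FOXO1, against 13.9% of all GR sites, and 6 of the 9 sites held by all 3 groups, against 50.7% of all 8097 such sites. All 8 were held by CORT and by cal. res., against 76.0% of all 7133 GR sites that overlapped FOXO1.

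The wider family of 29 zinc and metallothionein genes placed these genes among their relatives. A GR site within 50 kb was found for 4 of 4 metallothionein genes, which share 1 cluster. It was also found for 13 of 14 importers of the Slc39a family and for 9 of 10 exporters of the Slc30a family. The share over all protein-coding genes was 73.2%. A site held by ctrl. was found for 19 of the 29 genes, by cal. res. for 18 and by CORT for 25, against 48.6%, 47.2% and 60.9% of all protein-coding genes. The importers had a median of 6.5 sites and the exporters of 2, against 3 over all protein-coding genes. After Slc39a14, the importer gene with the most CORT sites was Slc39a4, with 9, and among the exporter genes Slc30a5 and Slc30a9 had 4 each. FOXO1 overlapped a GR site near 5 importer genes and 1 exporter gene, Slc30a5, and the share over all genes was not computed.

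The genes whose start had a GR site most like the top site of Mt1 were sought among 10015 other protein-coding genes with a site within 1 kb, by the distance between the percentiles in the 6 lists. The most alike genes were Plin4, a lipid droplet coat protein gene, at a distance of 0.829 percentile points, Ttpa, which encodes the vitamin E transfer protein, at 0.987, the circadian repressor gene Ciart at 1.02, Tedc2 at 1.03 and Gm826 at 1.13. In Plin4 the percentiles, as rounded, were 99.8 and 99.8 (ctrl.), 100 and 100 (cal. res.) and 99.8 and 100 (CORT), and 3 of the 10015 genes had such a site in the top 1% of all 6 lists.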

How the data were processed

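GR and FOXO1 ChIP-seq of mouse liver were used as peak lists. The authors aligned reads to mm10 and called peaks with MACS2, and the processing notes also name BWA, SAMtools, Picard, bedtools and deepTools. In the deposited lists, fold enrichment over background is a ratio, and p- and q-values are given as -log10. GR lists were made per library (largest q 0.0998), and the FOXO1 list from merged libraries (largest q 9.84e-06). Rows of 1 region were reduced to the highest fold, regions sharing 1 bp were merged into sites, and percentiles were taken per list (pandas 2.3.3). Gene starts were those of GENCODE M21. Libraries were compared by exact permutation tests, and the code was tested on simulated lists. Sites named in the text were those within 1 kb of a start, the 3 strongest per gene, those with FOXO1, and those held by CORT or cal. res. with no ctrl. peak, or by ctrl. with no peak in another group. The Slc39a14 element 19.8 kb and the Mt1 site 35.5 kb downstream were named outside this rule, after their values were seen. Summits within 100 bp were joined into elements after the data were seen. The genes and lists were chosen with earlier results of these data known. No peak end lay beyond the reference chromosomes, and no replicate lists were alike. Correlations of replicate 1 deviations between groups were -0.125 to 0.0737, so the numbers were not taken as pairs.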

Additional observations from a re-analysis of the deposited data

How the results depend on the processing

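With 2 libraries per group no difference could pass a test, so only directions and sizes were compared. The excess of CORT over ctrl. in sites with a peak kept its sign under every alternative run, from 16.5 to 31.5 when 1 library was left out, and that of CORT over cal. res. from 26.5 to 32.0, but with equal numbers of regions they fell to 3.0 and 4.0. The cal. res. minus ctrl. difference in sites with a peak (-4.0) turned to 3.0 without ctrl. 1 and within the letter-first name style, and ranged from -11.0 to 3.0 when 1 library was left out. Its difference in percentile (1.69) turned to -1.35 with a window of 100 kb and to -3.98 with an absent peak set to 0, and ranged from -8.86 (without ctrl. 2) to 5.86 when 1 library was left out, with -0.274 without CORT 2. CORT minus cal. res. in percentile (7.92) turned to -0.11 with equal numbers of regions per list, and ranged from 6.87 to 12.2 when 1 library was left out, and CORT minus ctrl. (9.6), which was 0.576 with equal numbers of regions, from 3.31 to 15.1. The causes of these reversals were not tested. Taken as a replicate block, the shared numbers left the differences at 23.5 and 9.6 for CORT minus ctrl., 27.5 and 7.92 for CORT minus cal. res. (exact sign permutation p = 0.5, the smallest that 2 pairs allow), and -4.0 and 1.69 for cal. res. minus ctrl. (exact p = 1.0), and the crossed pairing of ctrl. and CORT, added after the data were seen, gave 23.5 and 9.6.

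Counts depended on thresholds. Except for sites held with equal regions, the shares of all GR sites under these alternatives were not computed. The counts therefore describe the sites of these genes and are not set against the genome. With a q of at most 1e-05, ctrl. held 6 sites and CORT 19. With equal regions, ctrl. held 8 and CORT 10, with 2 held by cal. res. and not ctrl., and 4 by CORT and not ctrl. Counting a peak in either library, ctrl. held 27 and CORT 56, with 2 held by cal. res. and not ctrl., and 32 by CORT and not ctrl. With a window of 25 kb, ctrl. held 8, CORT 19, and CORT and not ctrl. 11. Leaving out 1 library, ctrl. held 13 to 27 (27 without ctrl. 2), CORT 31 to 48 (48 without CORT 1), cal. res. and not ctrl. 0 to 6 (0 without ctrl. 2), and CORT and not ctrl. 9 to 35 (9 without ctrl. 2, 35 without CORT 1, 31 without CORT 2). Counted as summit clusters, a choice made after the data were seen, 7 were held by cal. res. and not ctrl. Of the wider list, 11 genes had a site held by cal. res. within 25 kb, and 16 a site held by CORT with equal regions. The number of sites with FOXO1 stayed within 1.5 times 8 under every alternative run.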
